A study of Mus musculus with 6 samples.

Results

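The SLAM genes encode a family of immunoglobulin-like receptors on blood cells, and the proteins of a pair of them, CD150 (Slamf1) and CD48 (Cd48), define the gate with which the cells of this study were sorted. The members were taken as the probe sets whose Entrez Gene number belongs to Slamf1, Cd48, Ly9, Cd84, Slamf6, Slamf7, Slamf8 or Slamf9. All 8 were found among 23185 named genes of 25206 probe sets. The RNA came from haematopoietic stem cells (HSCs) freshly isolated from the bone marrow of young Merit40-/- mice and young wild-type (WT) mice, and was hybridised to 6 Affymetrix Mouse Gene 2.0 ST arrays, 3 per genotype. In both genotypes the cells had been sorted in a double pass as CD150+CD48- cells of the LSK gate (lineage-negative, Sca-1+, c-Kit+). Merit40, the protein of Babam1, is a subunit of complexes that cut ubiquitin chains. The labels call the 3 arrays of each genotype biological replicates. How the allele was made, the strain, the sex and the number of mice behind each array are not given in the labels, so the spread below is that between arrays.

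Most SLAM receptors bind a copy of themselves on a neighbouring cell and carry tyrosine motifs in their tails that recruit the small adaptors SAP (Sh2d1a), which brings in the kinase Fyn, and EAT-2 (Sh2d1b1). The phosphatase SHP-1 (Ptpn6) can bind these motifs itself. CD48 differs in that it is held in the membrane by a lipid anchor, has no tail of its own and binds the family member Cd244a, and in mice also Cd2. Cd244a was not among the 8 members taken here, so counts over the family leave it out, and it is described with the signalling genes. In mouse bone marrow CD150 is kept by long-term stem cells, whereas CD48 appears as cells become multipotent and lineage-restricted progenitors. The gate therefore selects on the protein of Slamf1 and against the protein of Cd48, and the arrays measure the transcripts of cells that had already passed this choice in both genotypes.

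The promoters of the sort marker genes are shown because the gate separates their products. They lie on chromosome 1 and are RefSeq sequences of GRCm38.p6, from 250 bases before to 50 bases after the gene start. Of the members, 7 of 8 had an entry (all but Ly9). The Slamf1 sequence is chr1:171766882-171767181 and the Cd48 sequence chr1:171681742-171682041, both on the plus strand. Capitals mark matches, on either strand, to core motifs of blood cell factor families: GATAA for GATA factors, GGAAG for ETS factors, TGTGGT for RUNX factors and CAGCTG for one class of E-box.
Slamf1: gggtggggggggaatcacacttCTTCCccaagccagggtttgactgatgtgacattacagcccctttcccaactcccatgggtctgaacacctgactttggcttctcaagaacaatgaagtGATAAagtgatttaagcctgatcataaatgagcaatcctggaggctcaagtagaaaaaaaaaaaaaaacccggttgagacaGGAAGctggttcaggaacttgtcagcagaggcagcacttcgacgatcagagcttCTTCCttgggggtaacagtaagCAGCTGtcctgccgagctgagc
Cd48: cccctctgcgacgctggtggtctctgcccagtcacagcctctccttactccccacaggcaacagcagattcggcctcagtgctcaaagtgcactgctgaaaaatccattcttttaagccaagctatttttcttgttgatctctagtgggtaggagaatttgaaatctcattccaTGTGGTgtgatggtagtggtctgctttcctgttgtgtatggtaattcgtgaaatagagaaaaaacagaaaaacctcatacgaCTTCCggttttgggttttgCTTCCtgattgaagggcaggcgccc

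The Slamf1 window held 1 GATAA, 3 GGAAG and 1 CAGCTG match and 0 of TGTGGT. The Cd48 window held 2 GGAAG matches and 1 of TGTGGT, with 0 of GATAA and of CAGCTG. Over all 32851 promoter windows of this length, 25.4% held GATAA, 71.4% GGAAG, 16.8% TGTGGT and 16.3% CAGCTG. No motif matches overlapped in these windows. A match describes the letters only.

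The arrays give 1 log2 value per gene and array, and probe sets differ in brightness, so the values of different genes are not amounts of transcript. A mark of low signal was therefore taken from 1389 olfactory, vomeronasal and taste receptor genes, of which 95% had WT means under 4.58, with a median of 2.93. Of all tested genes, 54.6% had a WT mean above this mark. In WT HSCs 5 SLAM genes, Cd84, Slamf1, Ly9, Cd48 and Slamf8, were above it on all 3 arrays, and 3, Slamf9, Slamf7 and Slamf6, were below it on all 3. The same split held on the 3 Merit40-/- arrays.

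**Figure D1:**
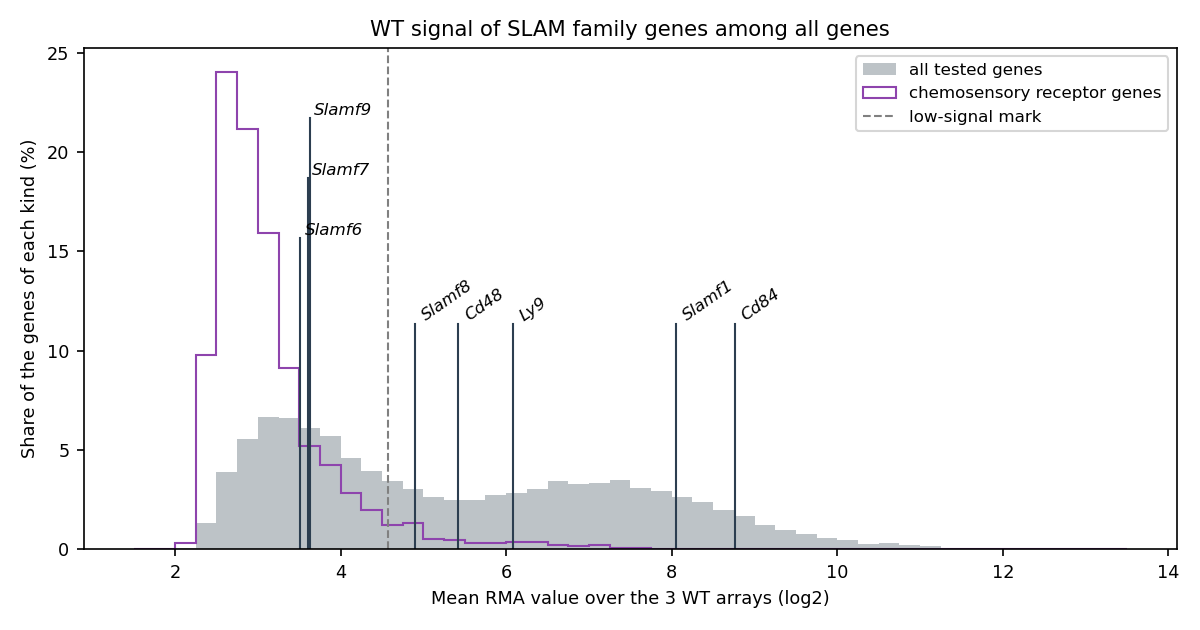
Distribution of the mean RMA value over the 3 WT arrays (x axis, log2) for all 23185 tested genes (grey) and for 1389 chemosensory receptor genes (purple outline), as the share of the genes of each kind (y axis, %). Vertical lines give the WT means of the SLAM genes and the dashed line the low-signal mark of 4.58, with Slamf6, Slamf7 and Slamf9 to its left and the other 5 genes to its right.

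Slamf1, the positive marker of the sort, gave a strong signal in both genotypes. It read 8.63, 8.07 and 7.99 in Merit40-/- replicates 1 to 3, against 7.71, 8.37 and 8.07 in WT replicates 1 to 3, all on the log2 scale. Merit40-/- replicate 1 was the highest array and WT replicate 1 the lowest, and the remaining 4 arrays of both genotypes lay between 7.99 and 8.37. The mean was 8.23 ± 0.35 in Merit40-/- HSCs and 8.05 ± 0.33 in WT HSCs (SD, n = 3 each). In WT this placed the probe set at the 86.9th percentile of all tested genes. The difference of 0.18 (SE 0.22) did not pass the test (adjusted p = 0.999 in limma), and its 95% interval of -0.33 to 0.69 allows a Merit40-/- to WT ratio between 0.795 and 1.62. Without Merit40-/- replicate 1 the difference was -0.02 and without WT replicate 1 it was 0.01, while it was 0.26 without Merit40-/- replicate 2, 0.30 without Merit40-/- replicate 3 and 0.34 without WT replicate 2. Skeletal muscle markers were high on Merit40-/- replicate 1. The 10 genes of that list averaged 8.56 there, against 4.84 and 4.94 on the other Merit40-/- arrays and 4.59 to 4.81 on the WT arrays. Their part in the Slamf1 value was not tested. The differences of these genes, 0 of which passed the test, were between 0.24 (Mb, myoglobin) and 2.18 (Tnnt3, a troponin). Mb was not raised on Merit40-/- replicate 1, at 4.86, against 4.75 and 4.98 on Merit40-/- replicates 2 and 3.

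Cd48, the marker selected against, lay above the low-signal mark on every array of both genotypes. Its values were 5.30, 4.99 and 5.88 in Merit40-/- replicates 1 to 3, against 5.58, 5.64 and 5.03 in WT replicates 1 to 3. Merit40-/- arrays were both the highest and the lowest of the 6, so the WT values lay inside their range. It averaged 5.39 ± 0.45 in Merit40-/- HSCs and 5.42 ± 0.34 in WT HSCs (SD, n = 3 each). The difference of -0.03 (SE 0.25) did not pass (adjusted p = 1.000 in limma), with a 95% interval of -0.61 to 0.55, or a ratio between 0.655 and 1.47. With 1 array left out it was between -0.27 (without Merit40-/- replicate 3) and 0.17 (without Merit40-/- replicate 2). Cd48 was among the more variable genes: its residual SD between arrays of a genotype was 0.40, at the 93.3rd percentile of all tested genes, whose median was 0.183. Slamf1 and Slamf9 followed in the family, both with a residual SD of 0.34, at the 88.5th and 88.0th percentiles. The probe set stood at the 55.1st percentile in WT, and a bulk value of this size cannot tell a low level in all cells from a higher level in few, nor fewer cells of a type from less RNA per cell.

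Cd84, a self-binding receptor found on platelets, lymphocytes and stem cells, had the smallest residual SD of the family, 0.173 within genotypes. It read 8.94, 8.84 and 8.74 in the Merit40-/- arrays, against 8.57, 9.0 and 8.71 in the WT arrays, in replicate order. All 3 Merit40-/- values fell inside the WT range. The mean was 8.84 ± 0.10 in Merit40-/- HSCs and 8.76 ± 0.22 in WT HSCs (SD, n = 3 each), a difference of 0.08 (SE 0.14) that did not pass (adjusted p = 0.999 in limma). Its 95% interval, -0.25 to 0.41, is the narrowest of the family, with a ratio between 0.840 and 1.33. Cd84 was not part of the sort gate, yet its probe set stood at the 93.4th percentile of all tested genes in WT.

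Ly9, a self-binding receptor best known from T and B cells, gave a middling signal. It read 5.70, 5.74 and 6.27 in the Merit40-/- arrays, against 6.17, 6.19 and 5.89 in the WT arrays, in replicate order. Merit40-/- replicates 1 and 2 lay below all WT arrays and replicate 3 above them, so the genotypes overlapped. It averaged 5.90 ± 0.32 in Merit40-/- HSCs and 6.08 ± 0.17 in WT HSCs (SD, n = 3 each). The difference of -0.18 (SE 0.18) did not pass (adjusted p = 0.999 in limma), with a 95% interval of -0.60 to 0.23. It was -0.08 without Merit40-/- replicate 1, -0.10 without Merit40-/- replicate 2 and -0.37 without Merit40-/- replicate 3, and between -0.28 and -0.13 without a WT array.

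Ly9 and Cd48 both had their highest value of all 6 arrays in Merit40-/- replicate 3, and their lowest WT value in WT replicate 3. Their lowest array of all 6 differed, being Merit40-/- replicate 1 for Ly9 and Merit40-/- replicate 2 for Cd48. Some lists of markers shared part of this order and others did not. Within Merit40-/-, the neutrophil, T cell, plasma cell and natural killer cell lists were lowest in replicate 3, averaging 8.988, 3.569, 4.035 and 4.965 there. The 6 measured B cell genes averaged 4.98 in Merit40-/- replicate 3 against 4.55 and 4.53 in Merit40-/- replicates 1 and 2, and 4.52 in WT replicate 3 against 4.74 in both WT replicates 1 and 2. Of these 6 genes, 1 had a Merit40-/- mean above the low-signal mark and 2 had a WT mean above it, with 0 past the test. Cd79b, of the B cell receptor, had the highest difference of the list, 0.39 (SE 0.16), at 8.92, 8.34 and 8.71 in the Merit40-/- arrays, against 8.23, 8.28 and 8.31 in the WT arrays, and the kinase gene Blk the lowest, -0.42 (SE 0.21). Cd79a, the partner of Cd79b, read 3.51, 2.87 and 4.59 in the Merit40-/- arrays, against 3.80, 3.77 and 3.05 in the WT arrays. The B cell surface gene Ms4a1, under the mark on every array, read 3.62, 3.15 and 4.34 in the Merit40-/- arrays, against 3.60, 3.45 and 3.54 in the WT arrays. Ms4a1 and Cd79a were highest in Merit40-/- replicate 3, but the other genes of this list were not. Cd79b was highest in Merit40-/- replicate 1, Cd22 (3.71) and Blk (4.58) in Merit40-/- replicate 2, and Pax5 (4.94) in WT replicate 2. Blk was lowest of all 6 arrays in Merit40-/- replicate 3, at 3.79. The 10 macrophage and monocyte genes averaged 5.20, 5.44 and 5.57 in Merit40-/- replicates 1 to 3, against 5.53, 5.51 and 5.19 in WT replicates 1 to 3. Of this list C1qb, C1qc, Cd68 and Csf1r were highest in Merit40-/- replicate 3, but the others were not. Ly6c2 (9.38) and Vcam1 (5.31) were highest in WT replicate 2, and Adgre1 (4.45) and Mrc1 (4.06) in WT replicate 1. C1qa (5.30) and Cd14 (4.76) were highest in Merit40-/- replicate 2. For 6 of these 10 genes the Merit40-/- mean was above the mark, and likewise 6 for WT. Their differences, 0 of which passed, were between -0.39 (the adhesion gene Vcam1) and 0.29 (the complement gene C1qb). The 8 osteoclast genes averaged 5.37 in Merit40-/- replicate 3 and 3.94 to 4.12 on the other 5 arrays, with 0 past the test and differences between -0.03 (Dcstamp) and 1.31 (the protease gene Ctsk). All but Calcr and Dcstamp were highest in Merit40-/- replicate 3, with Ctsk at 7.94 and Acp5 at 7.91 there. Dcstamp read 3.58 on that array, and Calcr had its lowest value of all 6 arrays there, 3.51. The lineage-negative gate is designed to remove mature B cells and myeloid cells. The part of any of these cells in the Ly9 and Cd48 values was not tested.

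Slamf8, a family member with a short tail that in mouse macrophages restrains the oxidase of the respiratory burst, lay just above the low-signal mark. It read 5.13, 4.84 and 4.94 in the Merit40-/- arrays, against 4.74, 5.13 and 4.82 in the WT arrays, in replicate order. All 3 Merit40-/- values fell inside the WT range. The mean was 4.97 ± 0.14 in Merit40-/- HSCs and 4.90 ± 0.21 in WT HSCs (SD, n = 3 each). The difference of 0.07 (SE 0.15) did not pass (adjusted p = 0.999 in limma), with a 95% interval of -0.27 to 0.41.

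The other 3 members stayed under the low-signal mark on all 6 arrays, where log2 values are compressed and a difference in transcripts is hard to read. Slamf9, known from macrophages and dendritic cells, had the largest difference of the family. It read 4.16, 4.13 and 3.85 in the Merit40-/- arrays, against 3.45, 4.14 and 3.30 in the WT arrays, in replicate order. WT replicate 2 lay within the Merit40-/- values, while WT replicates 1 and 3 lay below all of them. The mean was 4.05 ± 0.17 in Merit40-/- HSCs and 3.63 ± 0.45 in WT HSCs (SD, n = 3 each). The difference of 0.42 (SE 0.22) did not pass (adjusted p = 0.999 in limma), with a 95% interval of -0.09 to 0.93. Without WT replicate 2 it was 0.67, and without WT replicate 3 it was 0.26.

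Slamf7, a receptor of natural killer and plasma cells that works through EAT-2, read 3.59, 3.83 and 3.34 in the Merit40-/- arrays, against 3.92, 3.50 and 3.39 in the WT arrays. Slamf6, a receptor of T, B and natural killer cells, read 3.18, 3.40 and 3.87 in the Merit40-/- arrays, against 3.52, 3.40 and 3.62 in the WT arrays. In both genes the genotypes overlapped, with differences of -0.02 (SE 0.18) for Slamf7 and -0.03 (SE 0.18) for Slamf6, neither past the test (adjusted p of 1.000 and 0.999 in limma). Markers of the mature lymphocytes that carry these receptors were partly above the mark. Of 7 T cell genes 0 had a mean above it in either genotype, and of 5 plasma cell genes 1 had one in each. Of 6 natural killer cell genes 3 had a mean above it in each genotype: Nkg7, a granule gene, with 8.14 in Merit40-/- and 8.83 in WT HSCs, the receptor gene Klrb1c with 6.36 in Merit40-/- and 6.47 in WT HSCs, and the perforin gene Prf1 with 5.15 in Merit40-/- and 5.30 in WT HSCs. In these 3 lists 0 genes passed the test, with differences between -0.08 (Cd3d) and 0.21 (Cd3g) for T cell genes, -0.08 (Tnfrsf17) and 0.21 (Sdc1) for plasma cell genes, and -0.69 (Nkg7) and 0.29 (Klrd1) for natural killer cell genes.

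**Figure D2:**
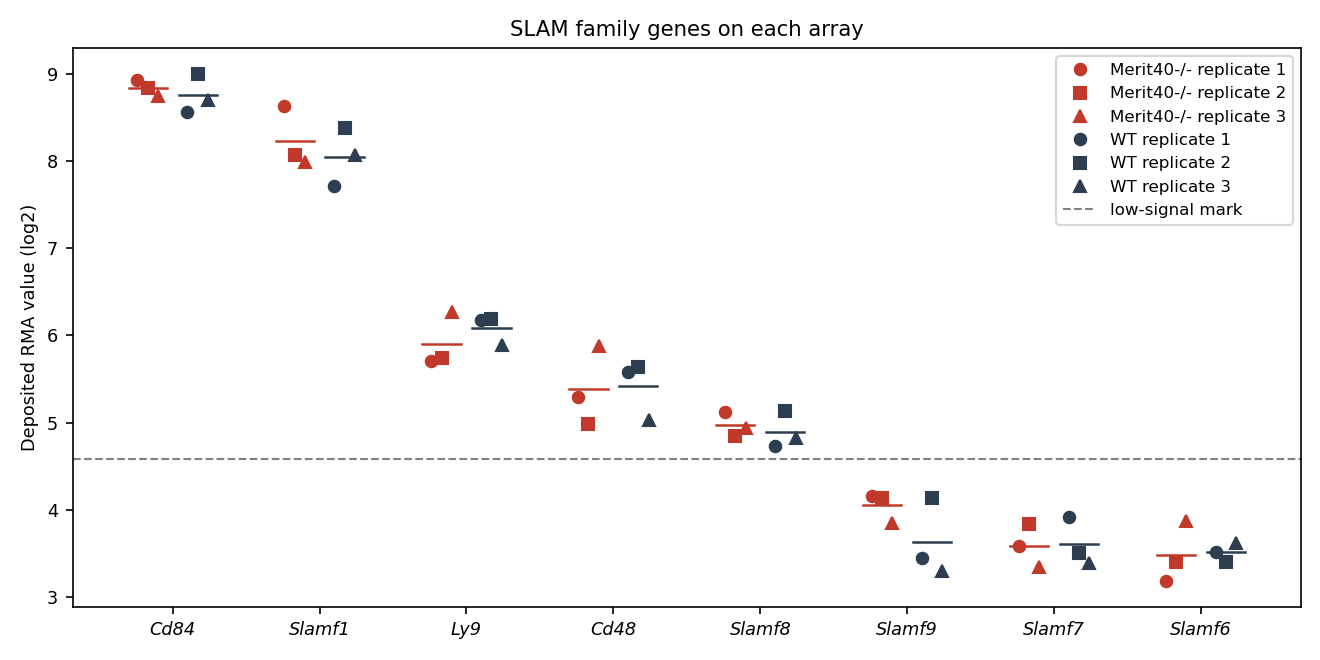
Deposited RMA value (y axis, log2) of each SLAM gene on every array, Merit40-/- in red to the left and WT in dark blue to the right, with 1 symbol shape per replicate number. Bars are means of 3 arrays and the dashed line is the low-signal mark of 4.58. The genotypes overlap in all 8 genes, and Slamf9, Slamf7 and Slamf6 lie below the mark on every array.

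Across the family, 0 of 8 members passed the test between genotypes, where 0.00431% of all tested genes did (1 of 23185, Babam1 itself, in limma with a threshold of 0.05 on the adjusted p). Before adjustment, 0 of 8 members had a limma p under 0.05, against 4.22% of all genes. The arrays of the genotypes overlapped for all 8 members, and did not overlap for 9.05% of all genes. With 8 genes, counts of 0 are near these backgrounds. Of all tested genes 51.5% were higher in Merit40-/- HSCs, and of the members 4 were higher and 4 lower. The median difference of the members was 0.03, beside 0.0052 over all tested genes. The 95% intervals of all 8 lay within 2-fold either way, with half-widths of 0.33 to 0.58 beside a median of 0.34 over all genes. For Slamf9, Slamf7 and Slamf6, under the low-signal mark, values are compressed, so their intervals do not bound a ratio of transcripts. Residual SDs were above the median of all genes for 6 members. The deleted gene Babam1 read 4.29, 3.87 and 4.01 in the Merit40-/- arrays, against 7.91, 8.04 and 8.05 in the WT arrays, which matches the labels.

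**Figure D3:**
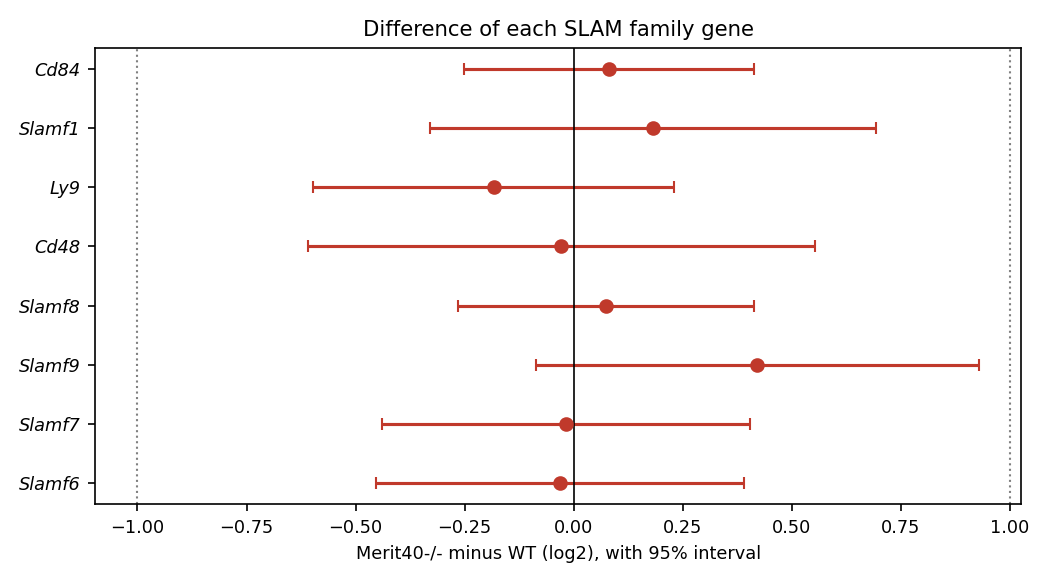
Difference of each SLAM gene between Merit40-/- and WT HSCs (x axis, log2, Merit40-/- minus WT; points) with limma's 95% interval (bars). The dotted lines mark 2-fold in either direction, and every interval includes 0 and lies between them. Slamf9, Slamf7 and Slamf6 lay under the low-signal mark, where values are compressed.

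The order of the arrays differed between members. Within WT, replicate 2 was the highest array for 6 of 8 members, the exceptions being Slamf7 and Slamf6. Within Merit40-/-, replicate 1 was the highest for Slamf1, Cd84, Slamf8 and Slamf9, and replicate 3 for Cd48, Ly9 and Slamf6. Slamf1, Cd84 and Slamf8 also shared WT replicate 1 as their lowest array of all 6. These orders were noticed after the values were seen and have no test.

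Genes with a profile over the 6 arrays like that of a sort marker were sought among those of similar level (within 1 log2 unit) and at least the same range. For Slamf1, 256 genes qualified, and the closest were Mettl7a1, Alkbh3 and Nedd1, at root mean square distances of 0.069, 0.088 and 0.12 log2 units between centred profiles. Mettl7a1 read 8.15, 7.78 and 7.58 in the Merit40-/- arrays, against 7.22, 7.98 and 7.62 in the WT arrays. For Cd48, 967 genes qualified, and the closest were Zfp459, Denn2b and Prkar1b, at 0.13, 0.13 and 0.14. With 6 arrays and so many candidates such likeness describes these arrays only.

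The partners and signalling genes of the SLAM receptors did not pass the test either. Of 22 measured genes of a list of 24, 12 were higher and 10 lower in Merit40-/- HSCs, 0 passed in either direction, and the median difference was 0.01. Merit40-/- and WT arrays stood fully apart for 3 of them, 1 higher and 2 lower, beside the 9.05% of all genes. Cd244a, the receptor for CD48, lay near the low-signal mark at 4.57, 4.84 and 4.25 in the Merit40-/- arrays, against 4.60, 4.86 and 4.15 in the WT arrays. Cd2, the other partner of CD48 in mice, was below the mark, at 3.56 in Merit40-/- and 3.72 in WT HSCs.

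The adaptor genes were also below the mark on all arrays. Sh2d1a read 3.49, 3.45 and 3.35 in the Merit40-/- arrays, against 3.69, 3.71 and 3.65 in the WT arrays, a difference of -0.25 (SE 0.11; adjusted p = 0.999 in limma) without overlap. The EAT-2 genes Sh2d1b1 and Sh2d1b2 averaged 3.06 and 3.04 in Merit40-/- HSCs, against 3.09 and 2.95 in WT HSCs. The kinase and phosphatase genes Fyn and Ptpn6 gave strong signals. Fyn averaged 7.89 in Merit40-/- and 7.68 in WT HSCs, and Ptpn6 averaged 8.96 in Merit40-/- and 8.77 in WT HSCs. The list's highest difference was that of the kinase gene Prkcq, 0.33 (SE 0.19), and its lowest that of Dok2, an adaptor that dampens tyrosine kinase signals, -0.59 (SE 0.20), both at adjusted p = 0.999 in limma. Dok2 read 5.79, 6.20 and 6.06 in the Merit40-/- arrays, against 6.64, 6.22 and 6.96 in the WT arrays, so the gap between the nearest arrays of the genotypes was small.

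The sort marker genes were set beside the other genes of stem and progenitor gates. Of 12 measured genes of a list of 13 that includes Slamf1 and Cd48 (Ly6a was not analysed here), 6 were higher and 6 lower in Merit40-/- HSCs, with 0 past the test and a median difference of -0.0065. Kit, the receptor for stem cell factor, averaged 11.06 in Merit40-/- and 10.96 in WT HSCs. Cd34, low on the surface of long-term stem cells of adult mice, averaged 10.22 in Merit40-/- and 10.06 in WT HSCs, and Flt3, a marker of multipotent progenitors, 6.87 in Merit40-/- and 6.72 in WT HSCs. Slamf1 had the highest difference of this list and the integrin gene Itga2b (CD41) the lowest, -0.53 (SE 0.13; adjusted p = 0.999 in limma), with 7.81, 7.84 and 8.03 in the Merit40-/- arrays, against 8.49, 8.55 and 8.24 in the WT arrays. Itga2b is also one of 6 measured megakaryocyte genes, cells that carry CD150 and CD84 as well. Of these 6, 1 was higher and 5 lower with 0 past the test, where 51.5% of all tested genes were higher. The 6 genes averaged 7.21, 7.26 and 7.22 in Merit40-/- replicates 1 to 3, against 7.54, 7.74 and 7.51 in WT replicates 1 to 3. Their differences were between -0.68 (the platelet chemokine gene Ppbp) and 0.09 (Gp9), and the part of such cells in the SLAM values was not tested. Of 8 measured HSC marker genes, all 8 had means above the low-signal mark in both genotypes, with 0 past the test and differences between -0.16 (Tek) and 0.26 (Mecom). All 8 neutrophil genes were likewise above the mark, with 0 past the test and differences between -0.13 (Camp) and 0.81 (Ly6g). Their WT means were between 6.18 (Ly6g, 63.1st percentile of all tested genes) and 12.05 (S100a9, 99.9th percentile). The neutrophil genes averaged 9.73, 9.66 and 8.99 in Merit40-/- replicates 1 to 3, against 9.44, 9.28 and 9.11 in WT replicates 1 to 3.

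On chromosome 1 the 8 members lay within a stretch of 26 tested genes, from Ly9 to Slamf8 in the order of the GRCm38.p6 annotation. Slamf7, Cd48, Slamf1, Cd84 and Slamf6 followed Ly9 with no other tested gene between them, Cd244a lay next to Ly9 outside the stretch, and Slamf9 and Slamf8 stood apart from this group. Of the 38 neighbours (18 within the stretch and 10 on each side), 21 were higher and 17 lower in Merit40-/- HSCs, with 0 past the test and a median difference of 0.02. The genotypes did not overlap for 2 of these neighbours, beside 9.05% of all tested genes. The highest neighbour was Casq1, the calcium store protein of skeletal muscle, at 5.51, 3.24 and 3.23 in the Merit40-/- arrays, against 3.41, 3.26 and 3.17 in the WT arrays. Its difference of 0.71 (SE 0.54) rests on Merit40-/- replicate 1, the array with high muscle markers. The lowest was Igsf8, an immunoglobulin-like membrane protein, at -0.30 (SE 0.15).

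**Figure D4:**
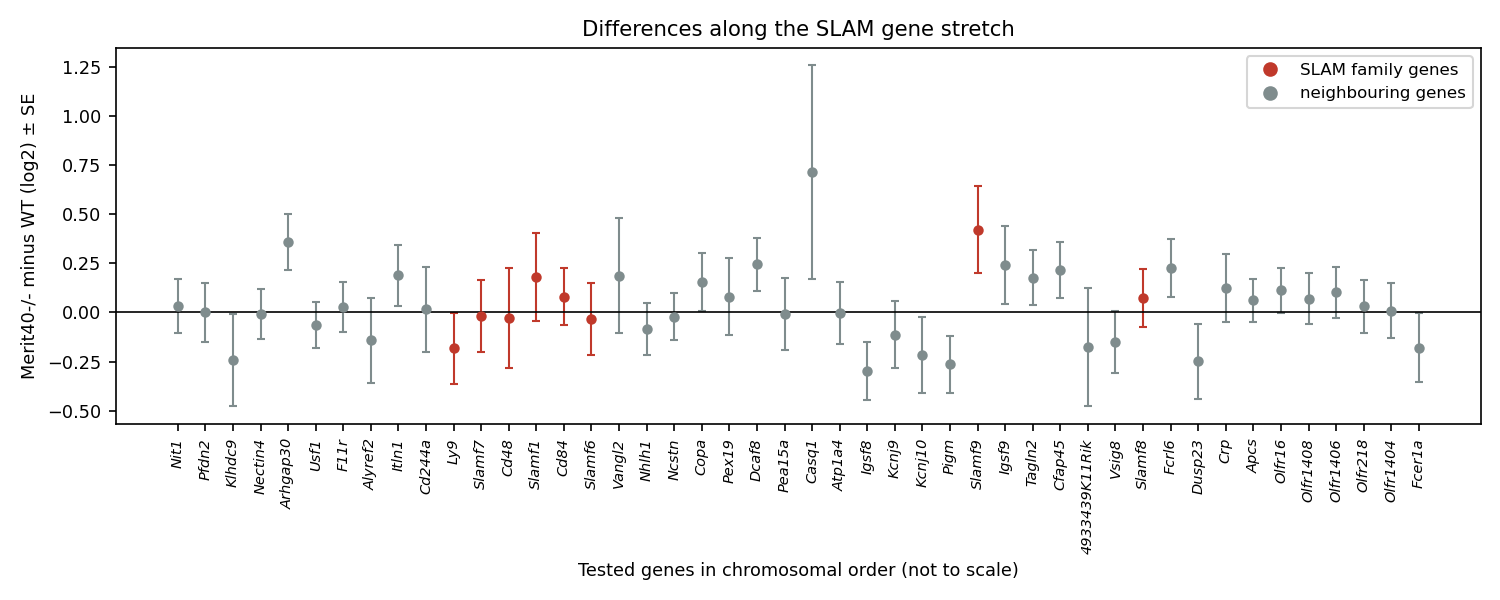
Difference between Merit40-/- and WT HSCs (y axis, log2, Merit40-/- minus WT, ± SE) of the tested genes from 10 before Ly9 to 10 after Slamf8, in chromosomal order and not to scale. SLAM members are red and neighbours, Cd244a among them, grey. Casq1 is the highest at 0.71 and has the widest error.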

How the data were processed

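Per the submitters' processing notes, the authors used RMA, with the affy package, to obtain the deposited log2 values. Their versions, the chip definition and the build are not stated in those notes or the labels. Per the labels' protocols, 50 ng of total RNA was amplified and biotin-labelled. RMA gives all arrays 1 distribution of intensities, which removes overall differences in RNA yield and compresses differences near background.

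Probe sets carry Entrez Gene numbers. The 23185 with 1 gene symbol were tested (symbols from GRCm38.p6, which matched all 23185), and the other 2021, with no symbol or more than 1, were not. Genes were fitted with limma 3.58.1 in R 4.3.3 (lmFit, eBayes, genotype only, 2-sided) with no filter and Benjamini-Hochberg adjustment over all tested genes at 0.05; adjusted p-values are from that fit. The procedure was tested on simulated data. No counts lie behind array values, so the number of arrays limits the precision.

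All 8 members are named. From each list described, the fixed genes and those of highest and lowest difference are named; other names (Ms4a1, Cd79a, Klrb1c, Prf1 and Cd2 among them) were chosen after their values were seen. Members, lists and motifs were chosen with earlier results of these data known. Alternatives were a replicate block, a variance trend, array weights, median centring, quantile normalization, a filter on dim genes, all probe sets, another threshold, another low-signal mark, and arrays left out.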

Additional observations from a re-analysis of the deposited data

How the results depend on the processing

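No SLAM gene passed the test under any alternative (0 of 8 in each, or 0 of the 6 left after the filter on dim genes), and the lowest adjusted p of a member was 0.849 in limma. One gene passed over all genes under every alternative except, chosen after seeing the data, without Merit40-/- replicates 1 and 3 (the arrays with muscle and osteoclast markers), which gave 2 genes past the threshold; the lone Merit40-/- array is there assumed to vary like WT. With 1 array left out, 1 gene passed over all genes and 0 SLAM genes each time.

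The sign of most of the small differences was not stable. Ly9, Slamf9 and the median over the members kept theirs whenever 1 array was left out. With 1 array left out in turn, the lowest and highest differences were -0.27 and 0.17 for Cd48, -0.016 and 0.20 for Cd84, -0.37 and -0.08 for Ly9, -0.019 and 0.34 for Slamf1, -0.23 and 0.12 for Slamf6, -0.14 and 0.14 for Slamf7, -0.0063 and 0.19 for Slamf8, and 0.26 and 0.67 for Slamf9, and 0.0020 and 0.14 for the median over the members. Without Merit40-/- replicates 1 and 3 together, Slamf7 turned to 0.23, Slamf8 to -0.055 and the median over the members to -0.018. The cause was not tested. Taking the median of all genes as the mark of low signal, 4 members in place of 5 were above it on all WT arrays.

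With the replicate block 1 gene passed, 0 SLAM genes passed and the median over the members was again 0.03. Same-numbered arrays did not deviate together (correlations of -0.05, -0.0027 and 0.04 across genes), so the numbers were not taken to pair the arrays.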
